A study of Ovis aries with 3 samples.

Results

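Gene expression was compared between whole Hu sheep (HS) embryos of embryonic day 16 (E16 HS) and of embryonic day 19 (E19 HS), each profiled as 1 droplet single-cell RNA library. A barcode was kept as a cell when it had between 200 and 6000 detected genes, between 1000 and 30000 unique molecular identifiers (UMIs, counted transcripts), and at most 10% of its UMIs on symbols that begin with MT-. This left 11329 of 12645 barcodes in E16 HS and 10629 of 12064 in E19 HS, together 21958 of the 31576 cells kept over the 3 libraries of the series. For each gene the UMIs of a library's kept cells were added up and scaled to a total of 1000000 (CPM), and all 15318 genes with 10 or more UMIs over both libraries were compared, of 26478 listed. The comparison was repeated without erythroid cells, taken as cells with at least 5 UMIs of *AHSP* and at least 2 of *ALAS2*, which left 9472 cells in E16 HS, 9324 in E19 HS and 15121 genes. Values below are for these non-erythroid cells unless all cells are named.

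The authors genotyped the parent Hu sheep as homozygous wild type at *T*, the brachyury gene, and ewes of every library had been synchronised with progesterone sponges and gonadotropin before artificial insemination. No embryo carried a transgene or received an agent. The remaining library, E19 HSTS, came from a day 19 embryo of Hulunbuir short-tailed sheep, a breed that carries a mutated *T*. It is set beside the Hu sheep values because it is the other library of day 19, but it differs in breed and is not a replicate. The label of the E16 HS library is written for a single embryo, whereas the study's methods count more than 1 embryo for that day, so it is not settled whether cells of several embryos were pooled. With 1 library a day, embryonic age, the individual embryo, storage, dissociation and library preparation cannot be told apart, and no test of the difference between days was made. A gene was called higher in a library when its CPM was at least 2-fold higher and the 95% exact interval of the ratio did not hold 1. That interval covers counting error only and says nothing of the spread between embryos. It treats each UMI as a separate draw, so it also leaves out the sampling of cells. For a gene whose UMIs lie in few cells the interval, and the call that rests on it, is therefore too narrow a guide.

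Day 16 to day 19 spans the passage from gastrulation and early somite formation to organ rudiments in sheep. The body axis lengthens from the tail bud, where caudal progenitors express *T*, *CDX* genes and *FGF8* and feed the presomitic mesoderm, which the segmentation clock divides into somites. In the same period the neural tube closes and is patterned, the heart tube begins to beat, vessels form, and the liver bud and the mesonephros arise, while the conceptus outside the embryo proper elongates and begins to attach to the uterus.

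The libraries differed in depth and in blood content. The non-erythroid cells had a median of 8048.5 UMIs and 1976.5 genes in E16 HS against 6380 UMIs and 1569.5 genes in E19 HS, and summed to 85857506 and 64390758 UMIs. Erythroid cells made up 16.4% (exact 95% interval 15.7 to 17.1%) of cells in E16 HS and 12.3% (11.7 to 12.9%) in E19 HS, although the protocol held a red cell lysis step that can set these shares. They carried 24.2% and 27.4% of all UMIs. The erythroid cut had 153 and 85 cells just outside and 352 and 269 just inside. Doublets were not removed: the caller marked 198 cells in E16 HS and 0 in E19 HS, and in the latter it had not worked. The libraries shared 37 of their kept barcodes. To give the level of free RNA, shares of cells with a UMI are set beside those of the erythroid cells, whose median depth was 14531 UMIs in E16 HS and 18210 in E19 HS. Erythroid cells give no such level for a gene found in more of them than of the other cells. Thinning removes a larger part of the UMIs of these deeper cells, so their thinned shares may understate free RNA in the other cells. Genes of every germ layer and of blood, such as neural *SOX2*, somitic *MEOX1*, hepatic *APOA2* and erythroid *AHSP*, were detected at both days, as the label of whole embryo says.

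Over all kept cells, 1167 of 15318 genes (7.62%) were called higher in E16 HS and 1218 (7.95%) in E19 HS. Without erythroid cells 927 of 15121 genes (6.13%) were called higher in E16 HS and 1379 (9.12%) in E19 HS. Of the genes called without erythroid cells, 889 were also called higher in E16 HS over all cells, which is 95.9% of that list and 76.2% of the list over all cells. For E19 HS, 1183 genes were called both ways, or 85.8% and 97.1%. Differences of at least 4-fold were seen for 303 genes higher in E16 HS and 560 higher in E19 HS, and of at least 10-fold for 98 and 205. A summed level cannot tell more cells of a type from more RNA per cell, so shares of cells are given beside it. As a yardstick between libraries of 1 day, 761 of 14888 genes (5.11%) were called in either direction between E19 HSTS and E19 HS, against 2306 between the days.

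**Figure D1:**
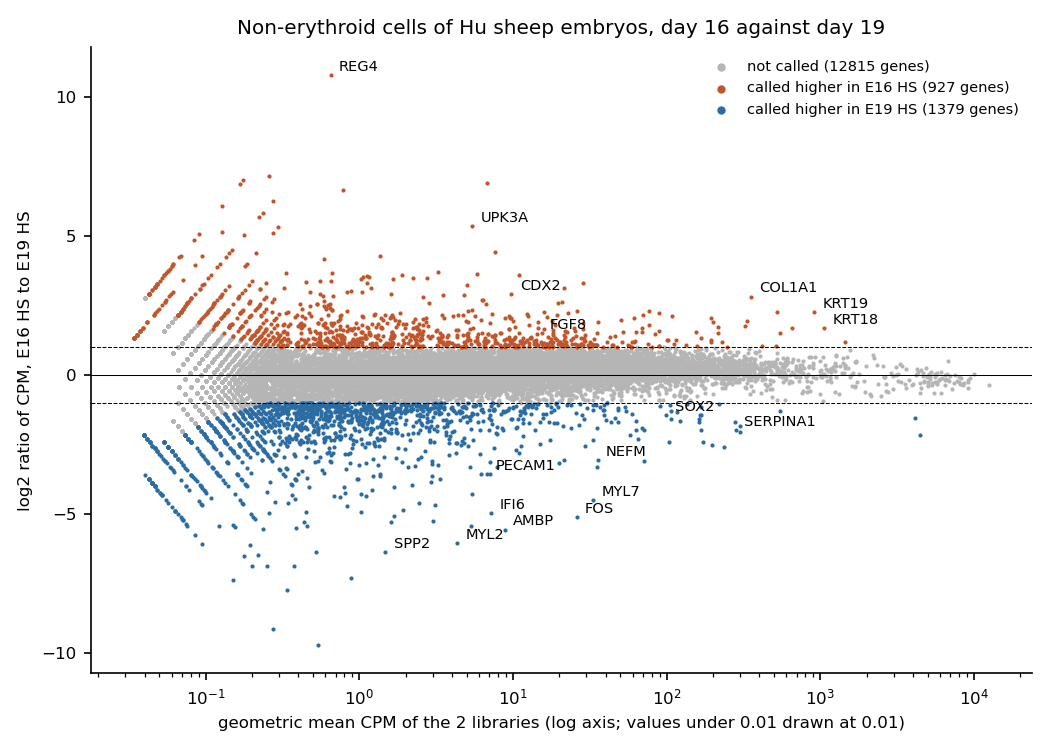
Each point is a gene of the non-erythroid cells, with the geometric mean of its CPM in E16 HS and E19 HS on a log axis across and the log2 ratio of E16 HS to E19 HS upward; dashed lines mark 2-fold, and a gene without a UMI in a library is drawn with its ratio at a floor of 3 UMIs. Most of the 15121 genes lie between the dashed lines, and the called genes reach further down, toward E19 HS, than up, apart from *REG4*.

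Ratios were ranked among genes that had a symbol and 500 or more UMIs over both libraries. The 15 with the largest ratio toward E16 HS included epithelial, caudal and matrix genes, whereas the 15 with the largest ratio toward E19 HS were led by genes of liver, muscle and kidney. *REG4*, which encodes a secreted lectin of epithelia, had 2332 and 1 UMIs in E16 HS and E19 HS, and 6 UMIs in E19 HSTS. Its levels were 27.2, 0.0155 and 0.109 CPM in E16 HS, E19 HS and E19 HSTS, and it was detected in 8.91% and 0.0107% of cells of the Hu sheep libraries. It was 1749-fold (314 to 69108) higher in E16 HS, an interval that is wide because the day 19 library held 1 UMI. A UMI was found in 1.51% and 0% of erythroid cells.

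Toward E19 HS the extreme was *SPP2*, a plasma glycoprotein made by the liver, at 0.163, 13.3 and 13.1 CPM in the same order of libraries, or 81.7-fold (48.4 to 150.1) higher. The 2 day 19 libraries lay close together for it, with E16 HS far below both. The value of E19 HSTS is set beside each gene as that of a further library, and its distance from E16 HS shares the E16 HS library with the comparison, so it is no replicate test.

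**Figure D2:**
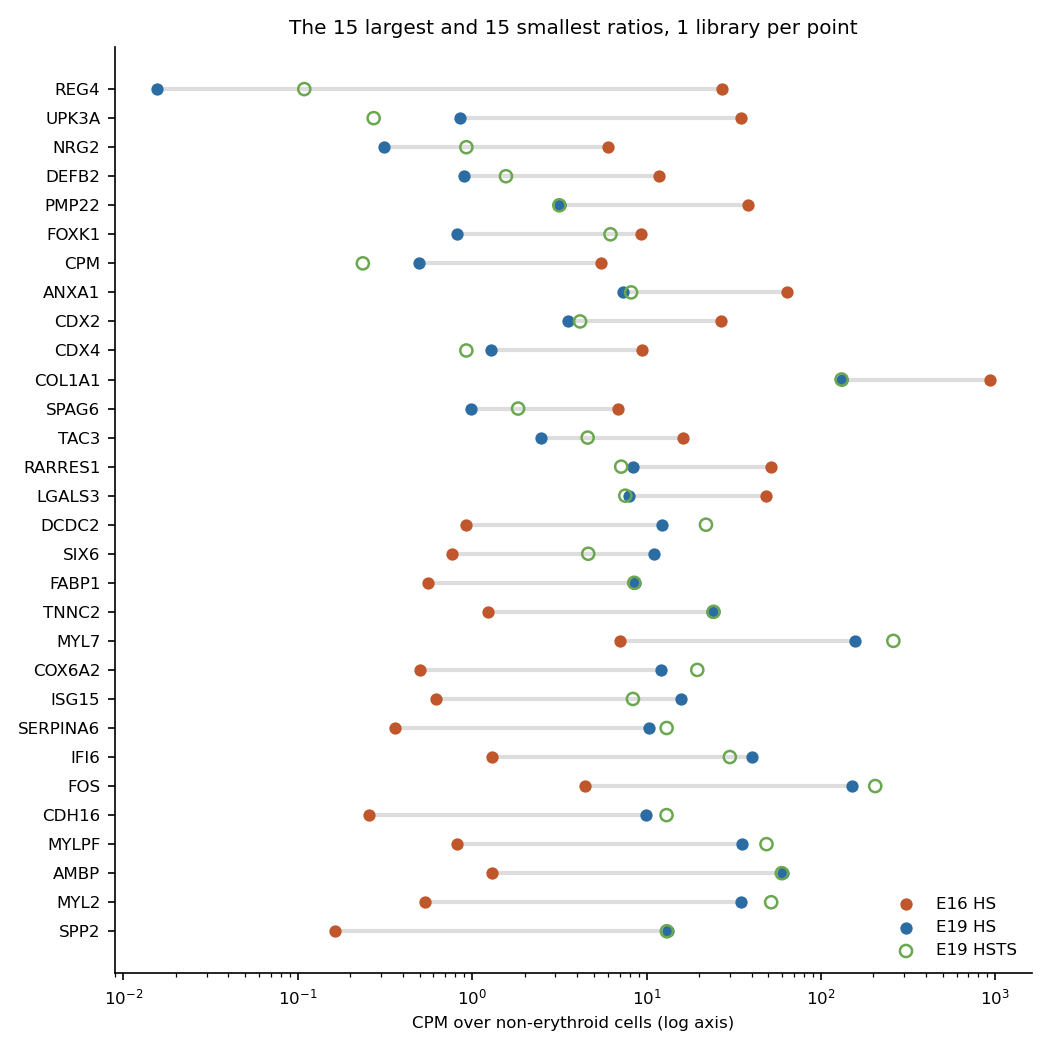
CPM over non-erythroid cells of the 15 genes with the largest and the 15 with the smallest ratio of E16 HS to E19 HS, on a log axis, with 1 point per library (filled for E16 HS and E19 HS, open for E19 HSTS). *REG4* spans the widest range, from 27.2 CPM in E16 HS to 0.0155 CPM in E19 HS. On this log axis *FOXK1* is the gene whose E19 HSTS value, 6.21 CPM, lies nearer to the 9.27 CPM of E16 HS than to the 0.823 CPM of E19 HS.

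Caudal progenitor genes were higher in E16 HS as a group. Of the tail bud list, 13 of 19 measured members were called higher in E16 HS and 1 in E19 HS, with a median log2 ratio of 1.70, against 6.13% and 9.12% of all genes and a median of 0.08 over all genes tested, which is the background for every list named here. *CDX2*, a caudal homeobox gene, stood at 26.8, 3.56 and 4.16 CPM in E16 HS, E19 HS and E19 HSTS and was 7.53-fold (6.57 to 8.66) higher in E16 HS. Its relative *CDX4* stood at 9.42, 1.29 and 0.926 CPM and was 7.31-fold (5.83 to 9.28) higher. *FGF8*, the growth factor that keeps the caudal end undifferentiated, measured 25.9, 9.09 and 9.41 CPM, a 2.85-fold (2.60 to 3.13) difference, and *FGF17*, a related ligand, measured 4.43, 0.590 and 0.0363 CPM, a 7.5-fold (5.37 to 10.8) difference. For each of these the values of both day 19 libraries lay below the value of E16 HS. *T* itself had 216 and 50 UMIs, or 2.52, 0.777 and 0.109 CPM, which is 3.24-fold (2.37 to 4.50) higher in E16 HS.

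Genes of the mesoderm progenitors followed, most of them at low counts. *TBX6*, needed for presomitic mesoderm, had 30 and 3 UMIs, and *MSGN1*, a regulator of the same tissue, had 72 and 12 UMIs. *WNT8A* had 20 and 1 UMIs and *FGF4* 22 and 5 UMIs, while *CYP26A1*, which clears retinoic acid from the tail bud, measured 3.58, 1.10 and 0.636 CPM and was 3.24-fold (2.5 to 4.26) higher in E16 HS. *WNT3A* (0.349 and 0.217 CPM in E16 HS and E19 HS) and *GDF11* (4.88 and 4.36 CPM) were not called. The exception was *FGFBP3*, an FGF-binding protein, at 0.0349, 0.264 and 0.381 CPM, which was 7.56-fold (2.19 to 40.2) higher in E19 HS.

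More cells carried several of these markers at day 16. With each cell thinned to 3000 UMIs, the share of non-erythroid cells with at least 3 tail bud markers was 2.42% (2.10 to 2.78%), 0.213% (0.124 to 0.341%) and 0.0165% (0.000417 to 0.0918%) in E16 HS, E19 HS and E19 HSTS. No erythroid cell of the Hu sheep libraries reached 3, but thinning takes a larger part of the UMIs of these deeper cells, so this value may understate free RNA. 

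The genes were then placed by the markers found in the same cells. Of the 553 cells of E16 HS with 2 or more *CDX2* UMIs, 61.5% (57.3 to 65.6%) carried at least 2 further tail bud markers, against 6.71% of the remaining cells. In E19 HS 49 cells had that much *CDX2*, and the share was 42.9% (28.8 to 57.8%), against 1.90%. For *FGF8* it was 69.9% (65.6 to 74.1%) of 469 cells in E16 HS, against 8.075% of the remaining cells. In E19 HS it was 25.2% (17.8 to 33.8%) of 123 cells, against 1.67%, so the share in the remaining cells was lower at day 19 as well. *FGF8* was thus present at both days, and at day 19 most of its cells lacked 2 further tail bud markers. Of the 38 cells of E16 HS with 2 or more *T* UMIs, 81.6% (65.7 to 92.3%) carried 2 further tail bud markers, against 12.1% of the remaining cells. In E19 HS 13 cells had that many, and 38.5% (13.9 to 68.4%) of them carried 2 further tail bud markers, against 2.42%. For 2 further notochord markers the shares of *T* cells were 18.4% (7.74 to 34.3%) in E16 HS, against 1.75%, and 46.1% (19.2 to 74.9%) in E19 HS, against 2.86%. For both lists the intervals of the 2 days overlap. A cell with 2 UMIs of a gene tends to be a deeper cell, which raises its markers of every list, so the share in the remaining cells is no depth-matched background. The cells were not thinned for these shares, so the values of the 2 days are not depth-matched either. *DEFB2*, a beta-defensin symbol that the annotation gives to more than 1 gene, was among the 15 and measured 11.8, 0.901 and 1.56 CPM. Of its 163 cells in E16 HS with 2 or more UMIs, 74.2% (66.8 to 80.8%) carried 2 tail bud markers, against 11.4% of the remaining cells. More of these 163 cells, 84.05% (77.5 to 89.3%), carried 2 neural progenitor markers, against 28.5%, and 74.2% carried 2 neuronal ones, against 34.7%.

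**Figure D3:**
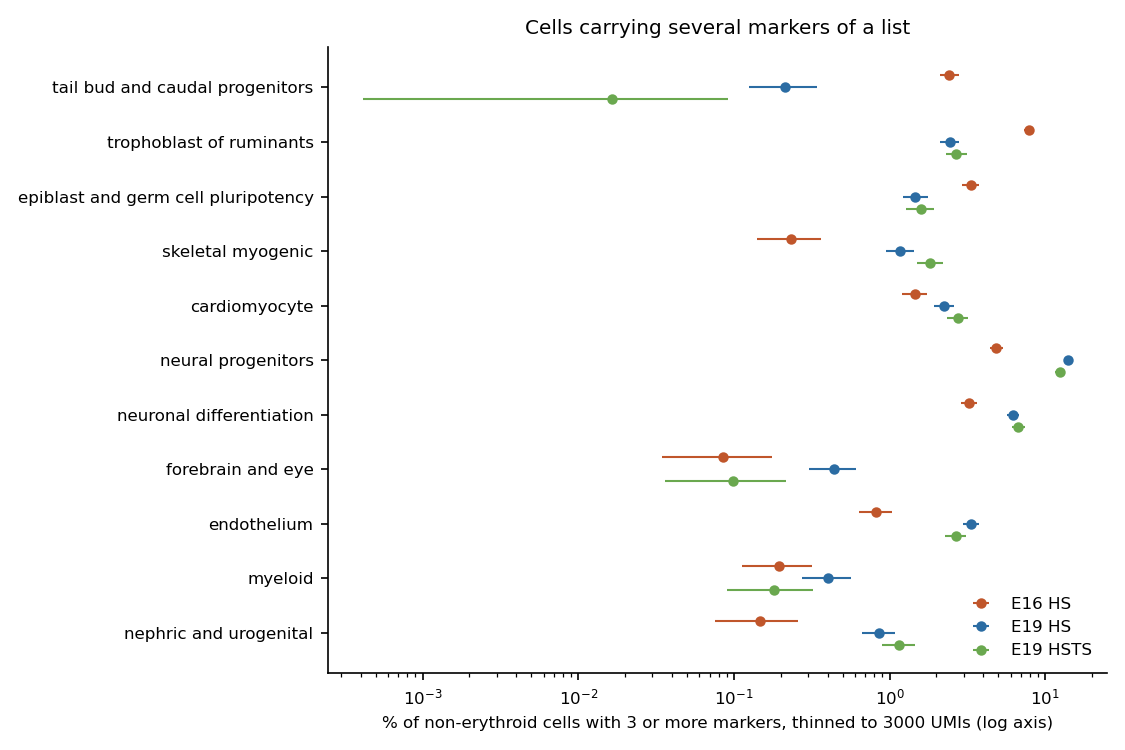
The share of non-erythroid cells with 3 or more markers of a list after thinning to 3000 UMIs, on a log axis, for E16 HS, E19 HS and E19 HSTS, with exact 95% binomial intervals that cover counting error only. The tail bud, trophoblast and epiblast lists have their highest share in E16 HS, and the skeletal, cardiomyocyte, neural, endothelial and nephric lists have their lowest there.

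Segmentation genes were split. Of that list, 5 of 19 measured members were called higher in E16 HS and 2 in E19 HS, with a median log2 ratio of -0.05. *HES7*, the oscillating repressor of the segmentation clock, measured 1.19, 0.0932 and 0.0182 CPM and was 12.7-fold (5.66 to 35.6) higher in E16 HS. The Notch ligands *DLL1* and *DLL3* measured 27.8, 11.2 and 15.5 CPM and 47.7, 22.2 and 18.4 CPM, or 2.48-fold and 2.15-fold higher in E16 HS. *RIPPLY2*, which ends the presomitic state, measured 4.34, 1.30 and 1.71 CPM. In contrast *LFNG*, the Notch glycosyltransferase of the clock, measured 3.19, 6.99 and 5.08 CPM and was 2.19-fold (1.88 to 2.55) higher in E19 HS, and *NRARP*, a Notch feedback gene, was 3.26-fold higher there. Of the 641 cells with 2 or more *DLL3* UMIs in E16 HS, 60.5% (56.6 to 64.3%) carried 2 tail bud markers, and of the 236 in E19 HS 13.6% (9.46 to 18.6%) did. Of the latter, 84.8% (79.5 to 89.1%) carried 2 neuronal markers. The day 16 share of *DLL3* cells with neuronal markers and the shares of the remaining cells are not given, so no shift between days is read from these values. The background differs between days too. Of the cells without 2 *DEFB2* UMIs, 11.45% in E16 HS and 2.44% in E19 HS carried 2 tail bud markers, and 33.7% in E19 HS carried 2 neuronal ones. Neuronal markers were also frequent in cells with 2 or more *FGF8* UMIs in E16 HS, at 74.0% against 33.4% of the remaining cells. The transcription factors of formed somites were near even, with 0 of 17 measured members called higher in E16 HS and 3 in E19 HS (median log2 ratio -0.05). *MEOX1* measured 12.3, 11.2 and 20.6 CPM and *PAX3* 23.4, 23.2 and 39.0 CPM, both uncalled, while *PAX1*, the sclerotome factor, measured 0.955, 2.11 and 2.60 CPM and was 2.21-fold (1.67 to 2.95) higher in E19 HS. *SPAG6*, a protein of the ciliary axoneme, was the member of the 15 that lay with somite factors: it measured 6.81, 0.978 and 1.83 CPM, and of its 124 cells in E16 HS with 2 or more UMIs 76.6% (68.2 to 83.7%) carried 2 of them, against 11.8% of the remaining cells.

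HOX genes, which give cells their position along the axis, did not shift as a whole. The anterior list had 0 of 12 measured members called higher in E16 HS and 1 in E19 HS (median log2 ratio 0.15), the central list 2 of 10 measured members called higher in E16 HS and 0 in E19 HS (median log2 ratio -0.07), and the posterior list 3 of 13 measured members called higher in E16 HS and 0 in E19 HS (median log2 ratio 0.30). The 5 members called higher in E16 HS came from groups 6, 8, 11 and 13. *HOXA13* measured 6.93, 1.15 and 2.12 CPM and was 6.03-fold (4.73 to 7.79) higher in E16 HS, *HOXD8* measured 8.23, 3.17 and 6.17 CPM, or 2.60-fold (2.22 to 3.05), and *HOXA11* measured 17.4, 7.81 and 10.5 CPM, a 2.23-fold (2.01 to 2.47) difference. *HOXD13* had 82 and 26 UMIs, or 2.37-fold. *HOXC6* measured 15.1, 6.90 and 12.1 CPM, with E19 HSTS nearer to E16 HS than to E19 HS. *HOXA2*, active in the hindbrain, was the HOX gene called higher in E19 HS, at 9.96, 20.5 and 18.3 CPM. Cells with *HOXA13* carried few tail bud markers. Of the 94 cells with 2 or more UMIs in E16 HS, 4.25% (1.17 to 10.5%) carried 2 of them, against 12.6% of the remaining cells, and 62.8% (52.2 to 72.5%) carried 2 markers of the cardiomyocyte list, which holds lateral plate factors, against 29.1%.

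**Figure D4:**
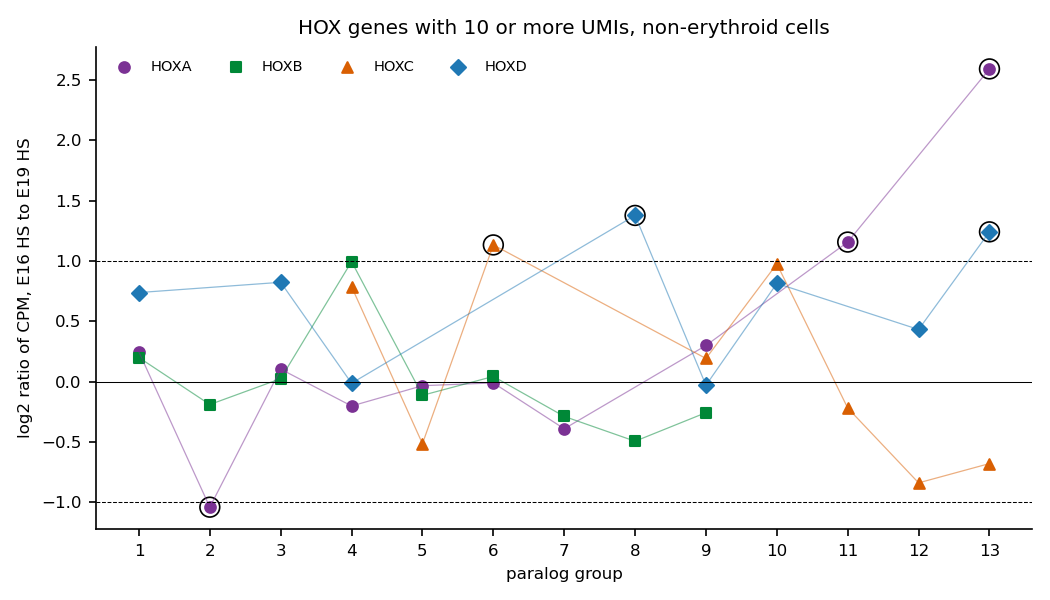
The log2 ratio of E16 HS to E19 HS in non-erythroid cells for each HOX gene with 10 or more UMIs, against its paralog group, with 1 symbol per cluster and a ring around called genes; dashed lines mark 2-fold. Most genes lie between the dashed lines, and *HOXA13* lies highest at a log2 ratio of 2.59.

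Signalling genes moved in both directions. The WNT list had 5 of 47 measured members called higher in E16 HS and 7 in E19 HS (median log2 ratio -0.06). *RSPO3*, a secreted enhancer of WNT signalling, measured 108, 36.9 and 37.5 CPM and was 2.93-fold (2.80 to 3.07) higher in E16 HS, and the ligand *WNT5B* measured 18.3, 8.85 and 6.57 CPM, a 2.07-fold difference. The enhancer *RSPO2* went the other way at 0.722, 4.44 and 5.01 CPM, or 6.15-fold (4.66 to 8.23) higher in E19 HS, as did the neural ligands *WNT7A* (0.0233, 0.217 and 0.436 CPM) and *WNT7B* (0.0233, 0.280 and 0.291 CPM). FGF genes had 6 of 28 measured members called higher in E16 HS and 0 in E19 HS (median log2 ratio 0.21). *FGF3* had 25 and 1 UMIs, and *FGF7* measured 5.56, 1.34 and 0.962 CPM, a 4.16-fold (3.30 to 5.30) difference. Receptors were uncalled, with *FGFR1* at 42.7, 51.1 and 66.2 CPM. The BMP and TGF-beta list had 7 of 42 measured members called higher in E16 HS and 1 in E19 HS (median log2 ratio 0.22). *BMP7* measured 40.9, 18.6 and 23.0 CPM and was 2.20-fold higher in E16 HS, and *TGFB1* measured 12.6, 4.64 and 3.61 CPM, or 2.72-fold higher, whereas the receptor *TGFBR2* measured 0.804, 1.97 and 1.42 CPM and was 2.45-fold higher in E19 HS.

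Retinoic acid genes had 3 of 18 measured members called higher in E16 HS and 3 in E19 HS (median log2 ratio -0.22). *DHRS3*, which returns retinal to retinol, measured 2.82, 0.683 and 1.96 CPM and was 4.12-fold (2.98 to 5.83) higher in E16 HS. The enzymes that make retinoic acid did not move alike. *ALDH1A2*, which serves the somites, measured 8.40, 8.54 and 11.1 CPM and was not called, with a ratio of 0.983 (0.879 to 1.10). *ALDH1A1* measured 0.233, 4.55 and 3.76 CPM and was 19.5-fold (12.4 to 32.5) higher in E19 HS, and *ALDH1A3* measured 0.0815, 2.47 and 0.908 CPM, or 30.3-fold (14.4 to 76.6) higher.

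Epithelial keratins showed the largest absolute differences toward E16 HS. *KRT19* measured 2009, 417 and 452 CPM in E16 HS, E19 HS and E19 HSTS, a 4.81-fold (4.75 to 4.88) difference, and *KRT18* measured 1905, 587 and 633 CPM, a 3.24-fold (3.21 to 3.28) difference. Their partner *KRT8* measured 395, 94.8 and 127 CPM, or 4.17-fold (4.06 to 4.29). *KRT19* was detected in 68.0% and 32.3% of the non-erythroid cells of E16 HS and E19 HS, but also in 49.3% and 12.3% of erythroid cells. The erythroid share is taken here as the level of free RNA, but doublets stayed in and the erythroid cells were deeper. After thinning, the shares of non-erythroid cells were 56.1% and 26%. Of the simple epithelium list, 7 of 19 measured members were called higher in E16 HS and 0 in E19 HS, with a median log2 ratio of 0.80. Adhesion genes of epithelia had smaller ratios, with *EPCAM* at 75.6, 48.0 and 53.9 CPM and a ratio of 1.58 (1.51 to 1.65), and *CDH1*, the epithelial cadherin, at 2.61, 2.78 and 2.89 CPM and a ratio of 0.939 (0.768 to 1.15).

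The list named trophoblast had 6 of 14 measured members called higher in E16 HS and 0 in E19 HS (median log2 ratio 0.78). The members called were *CDX2*, *KRT8*, *KRT18*, *HAND1* and *GATA3*, which embryonic epithelia and mesoderm also use, and *CYP11A1*, at 43 and 9 UMIs in E16 HS and E19 HS. Defining products of the ruminant trophoblast were near 0 or even between days: *TKDP1* measured 0.338 and 0.357 CPM and *ELF5* 4.27 and 3.06 CPM in E16 HS and E19 HS, and the interferon gene *IFNT* is not listed by symbol in the annotation used. The share of cells with at least 3 markers of this list was 7.88%, 2.43% and 2.69% in E16 HS, E19 HS and E19 HSTS, and 0.598% and 0% of erythroid cells in E16 HS and E19 HS. From these markers the list's cells are named here by their genes and not as trophoblast.

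Several membrane and secreted proteins were also among the 15 genes with the largest ratio toward E16 HS. *UPK3A*, a uroplakin of stratified epithelia, measured 34.7, 0.854 and 0.272 CPM and was 40.6-fold (31.1 to 54.1) higher, and it was found in 4.13% and 0.214% of cells and 0.808% and 0% of erythroid cells. *ANXA1*, a calcium-dependent membrane binder, measured 64.1, 7.30 and 8.15 CPM and was 8.78-fold (7.99 to 9.67) higher, in 16.0% and 2.82% of cells and 2.37% and 0.460% of erythroid cells. *LGALS3*, a galectin, measured 48.3, 7.95 and 7.55 CPM, and *PMP22*, a membrane protein of epithelia and of myelin, measured 38.1, 3.17 and 3.16 CPM and was 12.0-fold (10.4 to 13.9) higher. Of the 288 cells with 2 or more *UPK3A* UMIs in E16 HS, 98.6% (96.5 to 99.6%) carried 2 or more markers of the list named trophoblast, against 53.9% of the remaining cells. For *ANXA1* in E16 HS this was 95.8% (94.4 to 96.9%) of 1074 cells, against 50.1%. In E19 HS, of the 96 cells with 2 or more *ANXA1* UMIs 66.7% (56.3 to 76.0%) carried 2 endothelial markers, against 10.3%, and 32.3% (23.1 to 42.6%) carried 2 myeloid ones, against 0.672%. The remaining genes of the 15 were *NRG2*, a neuregulin ligand, at 5.98, 0.311 and 0.926 CPM, the carboxypeptidase M gene at 5.49, 0.497 and 0.236 CPM, *RARRES1*, a retinoid-responsive gene, at 51.9, 8.37 and 7.15 CPM, and *FOXK1*, a forkhead factor, at 9.27, 0.823 and 6.21 CPM. The *FOXK1* values split the day 19 libraries, and it was found in 7.22% and 0.460% of erythroid cells in E16 HS and E19 HS.

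Surface ectoderm genes had 6 of 14 measured members called higher in E16 HS and 1 in E19 HS (median log2 ratio 0.35). *PERP*, a desmosome component, measured 12.1, 4.69 and 6.41 CPM, *GRHL2*, an epithelial factor, measured 1.30, 0.590 and 0.835 CPM, and *GRHL3*, its relative in the closing neural folds, had 39 and 1 UMIs. The basal keratinocyte factor *TP63* was uncalled at 0.454, 0.528 and 0.872 CPM. *TAC3*, the neurokinin B precursor, was in the 15 at 16.2, 2.48 and 4.59 CPM, or 6.51-fold (5.52 to 7.72) higher in E16 HS. Its UMIs were concentrated, with 90.4% in 87 cells, of which 59.8% (48.7 to 70.2%) carried 2 surface ectoderm markers, against 4.87% of the remaining cells. The pluripotency list had 3 of 11 measured members called higher in E16 HS and 0 in E19 HS (median log2 ratio 0.66). *POU5F1* measured 1.72, 0.683 and 0.563 CPM and was 2.52-fold (1.79 to 3.62) higher, *UTF1* had 97 and 24 UMIs, and *LIN28A* measured 32.0, 20.3 and 20.5 CPM and was not called.

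Fibrillar matrix genes were the other abundant group toward E16 HS. In the extracellular matrix list, 10 of 32 measured members were called higher in E16 HS and 2 in E19 HS, with a median log2 ratio of 0.64. *COL1A1* measured 936, 132 and 131 CPM and was 7.09-fold (6.93 to 7.25) higher in E16 HS, and its partner chain *COL1A2* measured 652, 169 and 180.4 CPM, or 3.86-fold (3.78 to 3.94). *COL3A1* measured 923, 321 and 357 CPM, the small proteoglycan *DCN* 601, 175 and 159 CPM and its relative *LUM* 394, 119 and 106 CPM, or 2.88-fold, 3.43-fold and 3.32-fold higher. The collagen chaperone *SERPINH1* went with them at 265, 91.3 and 105 CPM, or 2.90-fold. In all of these genes both day 19 libraries lay far below E16 HS and close to each other. *COL1A1* was detected in 37.6% and 22.6% of non-erythroid cells and 17.5% and 3.83% of erythroid cells of E16 HS and E19 HS. In E16 HS 2407 cells with 2 or more UMIs held 98.6% of its UMIs.

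The matrix genes did not move as a block. *COL2A1*, the cartilage collagen, measured 141, 106 and 129 CPM with a ratio of 1.33 (1.29 to 1.37), *FN1* measured 54.3, 30.1 and 35.0 CPM, and *POSTN*, a matricellular protein, measured 69.0, 129 and 132 CPM and leaned toward E19 HS without being called. *OGN* and *MFAP4* were called higher in E19 HS, at 0.0932, 0.994 and 0.182 CPM and 0.443, 0.916 and 1.03 CPM. In the limb and lateral plate list, 7 of 24 measured members were called higher in E16 HS and 5 in E19 HS, with a median log2 ratio of 0.38. The hindlimb factors *PITX1* and *TBX4* measured 18.3, 4.36 and 7.24 CPM and 4.65, 1.29 and 2.29 CPM, or 4.19-fold (3.69 to 4.77) and 3.61-fold (2.84 to 4.62) higher in E16 HS. *FOXF1*, of splanchnic mesoderm, measured 3.63, 1.01 and 1.11 CPM. Toward E19 HS stood *PRRX1*, of limb mesenchyme, at 7.10, 17.4 and 21.9 CPM, *LHX9* with 4 and 14 UMIs, and *EMX2*, of the urogenital ridge and forebrain, at 6.57, 15.0 and 21.2 CPM.

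Contractile genes of heart and muscle were among the largest differences toward E19 HS. In the cardiomyocyte list, 4 of 20 measured members were called higher in E16 HS and 10 in E19 HS, with a median log2 ratio of -1.19. *MYL2*, the ventricular regulatory light chain, measured 0.536, 34.9 and 51.8 CPM and was 65.1-fold (48.6 to 89.2) higher in E19 HS. *MYL7*, the atrial light chain of the early heart, measured 7.05, 158 and 260.2 CPM and was 22.4-fold (20.6 to 24.3) higher. Cardiac actin *ACTC1* measured 24.2, 208 and 261 CPM, the slow myosin *MYH7* 6.67, 59.7 and 89.8 CPM, and the light chain *MYL3* 11.2, 111 and 130.3 CPM, or 8.59-fold (8.20 to 9.0), 8.95-fold (8.20 to 9.79) and 9.93-fold (9.28 to 10.6) higher. E19 HSTS was above E19 HS in each of these 5 genes.

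Of the 5 transcription factors in the cardiomyocyte list, 3 were called higher in E16 HS. *GATA4* measured 4.82, 1.38 and 1.71 CPM and was 3.49-fold (2.77 to 4.44) higher in E16 HS, *TBX20* measured 4.06, 1.24 and 1.38 CPM, or 3.27-fold (2.56 to 4.23), and *HAND2* measured 35.6, 13.1 and 16.1 CPM, or 2.73-fold. *TBX5* was uncalled at 1.25, 0.947 and 1.83 CPM, and *NKX2-5*, an early heart factor, was uncalled at 0.0699, 0.124 and 0.109 CPM. These factors are also used outside the heart, in lateral plate, limb and gut mesoderm. The share of cells with at least 3 cardiomyocyte markers was 1.46% (1.21 to 1.74%), 2.24% (1.93 to 2.59%) and 2.74% (2.34 to 3.18%), a smaller difference than that of the light chains. *MYL7* was found in 0.834% and 1.98% of cells and 0.162% and 1.46% of erythroid cells, and the 119 cells with 2 or more UMIs in E19 HS held 99.3% of its UMIs. Of them 96.6% (91.6 to 99.1%) carried 2 further cardiomyocyte markers, against 17.2% of the remaining cells. In E16 HS 23 cells had 2 or more UMIs, and 95.7% (78 to 99.9%) of them carried such markers, so cells with this profile were present at both days.

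Skeletal muscle genes had 0 of 12 measured members called higher in E16 HS and 10 in E19 HS (median log2 ratio -1.90). *MYH3*, the embryonic myosin heavy chain, measured 0.0582, 4.72 and 5.76 CPM, from 5 and 304 UMIs in E16 HS and E19 HS, and was 81.1-fold (34.4 to 251) higher in E19 HS. *TNNC2*, fast troponin C, measured 1.23, 23.9 and 24.2 CPM, or 19.3-fold (15.9 to 23.8), and *MYLPF*, the fast light chain, measured 0.815, 35.3 and 48.7 CPM, or 43.3-fold (34.1 to 55.7). The regulators were at low counts: *MYF5* had 22 and 45 UMIs and a feature with the symbol *MYF6* had 111 and 271 UMIs, both called higher in E19 HS. Of the other members, *CDH15*, a cadherin of myoblasts, had 73 and 234 UMIs, and *DES*, a filament gene of all muscle, was even at 8.09 and 7.30 CPM. Cells with at least 3 skeletal markers made up 0.233%, 1.17% and 1.83% of the thinned cells in E16 HS, E19 HS and E19 HSTS. *MYL4*, *TNNI1* and *ACTN2* sit in this list and are heart genes of the embryo too. Of the 37 cells with 2 or more *MYLPF* UMIs in E19 HS, 94.6% (81.8 to 99.3%) carried 2 skeletal markers, against 5.07% of the remaining cells. *COX6A2*, the muscle form of a cytochrome oxidase subunit, measured 0.501, 12.1 and 19.5 CPM, and all 86 of its cells with 2 or more UMIs in E19 HS carried 2 cardiomyocyte markers.

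Neural genes were higher in E19 HS, progenitor and neuron genes alike. In the neural progenitor list, 0 of 20 measured members were called higher in E16 HS and 17 in E19 HS, with a median log2 ratio of -1.80, and in the neuronal list, 1 of 26 measured members were called higher in E16 HS and 18 in E19 HS, with a median log2 ratio of -1.89. *SOX2*, which maintains neural progenitors, measured 60.4, 164 and 146 CPM and was 2.72-fold (2.63 to 2.81) higher in E19 HS. *PAX6*, a patterning factor of the neural tube and eye, measured 10.3, 33.7 and 29.3 CPM, or 3.28-fold (3.03 to 3.55), and *ZIC1*, of the dorsal neural tube, measured 0.641, 5.54 and 5.23 CPM, or 8.65-fold (6.50 to 11.7). *OLIG2*, of motor neuron progenitors, had 1 and 40 UMIs, a 53.3-fold (9.04 to 2159) difference whose interval is wide at that count. *NES*, the progenitor filament gene, measured 398, 560.3 and 599 CPM and was not called.

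The neurofilament gene *NEFM* measured 12.4, 102 and 107 CPM and was 8.23-fold (7.71 to 8.79) higher in E19 HS, and *STMN2*, of growing axons, measured 68.2, 165 and 196 CPM, or 2.42-fold (2.35 to 2.5). *DCX*, of migrating neurons, and *NEUROD4*, a neurogenic factor, measured 0.0582, 1.07 and 1.45 CPM and 0.151, 3.06 and 4.19 CPM. *NEFM* was detected in 5.92% and 5.95% of cells of E16 HS and E19 HS, in 2.64% and 4.02% after thinning, and in 0.862% and 0.919% of erythroid cells. Of the 155 cells with 2 or more UMIs in E16 HS, 51.0% (42.8 to 59.1%) carried 2 other neuronal markers, against 33.5% of the remaining cells, and of the 225 in E19 HS 89.3% (84.5 to 93.0%) did, against 31.1%. *TH*, the dopamine synthesis enzyme, was the member called toward E16 HS, with 12 and 2 UMIs. The creatine kinase *CKB* was among the 10 largest CPM differences toward E19 HS, at 351, 854 and 775 CPM, and of its 4640 cells with 2 or more UMIs in that library 69.9% (68.6 to 71.2%) carried 2 neural progenitor markers, against 22.6% of the remaining cells.

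Counted in cells, 4.85% (4.39 to 5.33%), 14% (13.2 to 14.8%) and 12.4% (11.6 to 13.3%) of thinned cells had at least 3 neural progenitor markers in E16 HS, E19 HS and E19 HSTS, and 3.24%, 6.20% and 6.71% had 3 neuronal ones. Forebrain and eye genes were sparse in E16 HS, with 0 of 16 measured members called higher in E16 HS and 12 in E19 HS (median log2 ratio -1.75). *SIX6*, of the optic field and hypothalamus, measured 0.769, 11.1 and 4.63 CPM and was 14.4-fold (11.2 to 18.8) higher in E19 HS, with E19 HSTS between the Hu sheep libraries. *RAX*, the retinal homeobox gene, had 2 and 21 UMIs, and the pigment gene *TYRP1* had 7 and 105 UMIs. Of the 102 cells with 2 or more *SIX6* UMIs in E19 HS, 60.8% (50.6 to 70.3%) carried 2 other forebrain markers, against 4.47% of the remaining cells. The midbrain and hindbrain list had 2 of 13 measured members called higher in E16 HS and 5 in E19 HS (median log2 ratio -0.68), and the members toward E16 HS were *FGF8* and *FGF17*, which the tail bud list holds too. *EN1*, a midbrain factor, measured 0.419, 1.88 and 1.98 CPM. Neural crest genes were mostly even, with 0 of 17 measured members called higher in E16 HS and 3 in E19 HS (median log2 ratio -0.36), and the crest factor *SOX10* had 48 and 25 UMIs. The notochord list had 2 of 12 measured members called higher in E16 HS and 3 in E19 HS (median log2 ratio -0.71), and *SHH*, the midline signal, measured 0.443, 1.10 and 1.43 CPM and was 2.49-fold (1.66 to 3.80) higher in E19 HS.

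Endothelial genes were called in a single direction, with 0 of 20 measured members called higher in E16 HS and 12 in E19 HS (median log2 ratio -1.67). *PECAM1*, a junction molecule of endothelium, measured 1.97, 23.2 and 21.6 CPM and was 11.8-fold (10.1 to 13.9) higher in E19 HS, and *CDH5*, the endothelial cadherin, measured 0.326, 3.04 and 3.14 CPM, or 9.33-fold (6.26 to 14.4). *PLVAP*, of vessel fenestrae, measured 18.2, 67.9 and 48.7 CPM, or 3.73-fold (3.52 to 3.96), and *KDR*, the VEGF receptor already used by angioblasts, measured 6.30, 14.1 and 13.7 CPM, or 2.25-fold (2.02 to 2.5). *STAB2*, a scavenger receptor of sinusoids, had 2 and 132 UMIs, or 88.0-fold (23.9 to 734) higher. *FLT1*, *CLDN5* and *TIE1* were uncalled, at 2.85 and 3.60 CPM, 0.524 and 0.637 CPM and 0.850 and 1.26 CPM in E16 HS and E19 HS. Cells with 3 endothelial markers made up 0.820% (0.636 to 1.04%), 3.35% (2.96 to 3.77%) and 2.67% (2.28 to 3.11%) of thinned cells, and 0.109% and 0.230% of erythroid cells in E16 HS and E19 HS.

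Myeloid genes had 0 of 14 measured members called higher in E16 HS and 9 in E19 HS (median log2 ratio -1.23), in few cells. *C1QC*, a complement component of macrophages, had 2 and 174 UMIs, a 116-fold (31.6 to 965) difference, and *TYROBP*, a signalling adaptor of myeloid cells, measured 1.55, 5.53 and 2.07 CPM, or 3.57-fold (2.92 to 4.39). Cells with 3 myeloid markers made up 0.196%, 0.401% and 0.181% of thinned cells in E16 HS, E19 HS and E19 HSTS, and the intervals of all 3 libraries overlapped. *IFI6* and *ISG15*, both induced by interferon, were among the 15 genes highest toward E19 HS, at 1.29, 40.4 and 30.0 CPM and 0.617, 15.7 and 8.35 CPM, or 31.2-fold (25.8 to 38.1) and 25.5-fold (19.3 to 34.2) higher. A list of interferon-stimulated genes, written after these values were seen, had 0 of 20 measured members called higher in E16 HS and 12 in E19 HS (median log2 ratio -1.58), and *MX1*, an antiviral GTPase, measured 2.06, 24.3 and 11.3 CPM. *ISG15* was found in 0.285% and 1.76% of non-erythroid cells and 1.89% and 6.67% of erythroid cells of E16 HS and E19 HS, and its ratio over all kept cells was 0.0878 (0.0747 to 0.103). The UMIs of *IFI6* lay in few cells, since 141 cells of E19 HS had 2 or more *IFI6* UMIs and held 95.3% of them. Of these cells 32.6% (25 to 41.0%) carried 2 myeloid markers, against 0.512% of the remaining cells, and 40.4% (32.2 to 49.0%) carried 2 endothelial ones, against 10.4%.

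The list of plasma protein genes of the liver bud and yolk sac had 1 of 23 measured members called higher in E16 HS and 11 in E19 HS (median log2 ratio -0.85). *AMBP*, the precursor of alpha-1-microglobulin, measured 1.29, 60.6 and 59.7 CPM and was 46.9-fold (38.8 to 57.1) higher in E19 HS. *SERPINA1*, alpha-1-antitrypsin, measured 143, 561 and 556 CPM, or 3.93-fold (3.85 to 4.01), and *SERPINA6*, the cortisol carrier, measured 0.361, 10.3 and 13 CPM, or 28.5-fold (19.9 to 42.3). *APOA2* measured 84, 329 and 359 CPM, or 3.92-fold (3.81 to 4.02), but it was also found in 60.5% and 19.6% of erythroid cells of E16 HS and E19 HS. *ALB*, *AFP* and *APOE* were not called: *AFP*, the fetal counterpart of albumin, measured 52.2, 74.5 and 104 CPM, with a ratio of 0.701 (0.673 to 0.730). *RBP4*, the retinol carrier, ran against the list at 143, 41.2 and 40.9 CPM, or 3.48-fold (3.34 to 3.63) higher in E16 HS.

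Transcripts of *AMBP* and *FABP1* sat in small groups of cells at day 19. In E19 HS the 129 cells with 2 or more *AMBP* UMIs held 98.7% of its UMIs, and 99.2% (95.8 to 100%) of these cells carried 2 other hepatic markers, against 46.0% of the remaining cells. In E16 HS 16 cells had that many. *FABP1*, the liver fatty acid binding protein, measured 0.559, 8.59 and 8.50 CPM, or 15.4-fold (11.4 to 21.1), and all 69 of its cells with 2 or more UMIs in E19 HS carried 2 hepatic markers. The share of cells with 3 hepatic markers was higher in E16 HS, at 19.9%, 7.77% and 6.78%, opposite to the levels of most called members, and that of erythroid cells was 2.06% and 0.766% in E16 HS and E19 HS. *RBP4* was detected in 29.3% and 13.7% of cells of E16 HS and E19 HS, *APOA1* in 35.3% and 30.9% and *APOE* in 80.8% and 70.2%. In erythroid cells these shares were 3.77% and 1.53%, 45.8% and 54.0% and 19.6% and 11.9%. Gut genes were mixed, with 6 of 22 measured members called higher in E16 HS and 4 in E19 HS (median log2 ratio 0.50), the keratins among the members toward E16 HS.

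Nephric genes had 2 of 19 measured members called higher in E16 HS and 5 in E19 HS (median log2 ratio -0.01). *CDH16*, the kidney cadherin, measured 0.256, 9.99 and 13 CPM and was 39.0-fold (25.5 to 62.6) higher in E19 HS, and *DCDC2*, a ciliary protein, measured 0.920, 12.3 and 21.9 CPM, or 13.4-fold (10.6 to 17.0). Of the 109 cells with 2 or more *CDH16* UMIs in E19 HS, 87.2% (79.4 to 92.8%) carried 2 other nephric markers, against 4.87% of the remaining cells. The nephric factors *PAX2* and *PAX8* were uncalled, at 0.291, 0.466 and 0.454 CPM and 4.03, 7.21 and 7.61 CPM, and *LRP2*, an endocytic receptor of tubules, measured 9.41, 21.1 and 26.4 CPM, or 2.24-fold higher in E19 HS. Cells with 3 markers of the list made up 0.147% (0.0759 to 0.256%), 0.852% (0.662 to 1.08%) and 1.15% (0.901 to 1.46%) of the thinned cells.

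**Figure D5:**
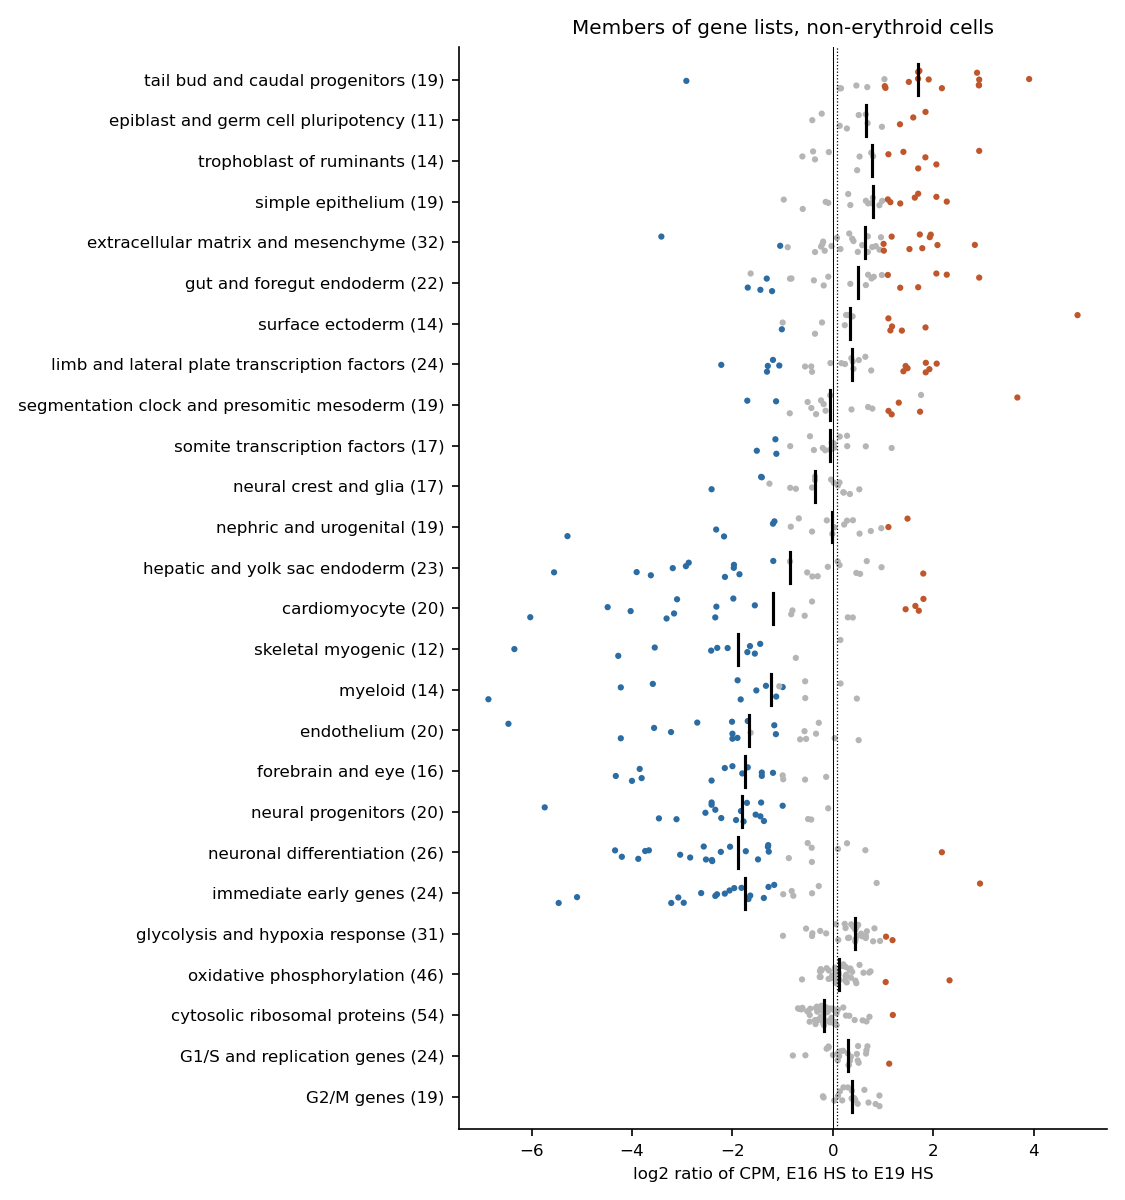
Members of 26 gene lists with 10 or more UMIs in non-erythroid cells, each a point at its log2 ratio of E16 HS to E19 HS, coloured where called; black bars are list medians, the dotted line is the median of all genes at 0.08, and the number of members measured follows each name. The tail bud list lies to the right with a median of 1.70, and the skeletal muscle, neural, endothelial and immediate early lists lie to the left with medians from -1.67 to -1.90.

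Immediate early genes, which cells switch on within minutes of a stimulus, were higher in E19 HS. Of their list, 1 of 24 measured members were called higher in E16 HS and 17 in E19 HS, with a median log2 ratio of -1.75. *FOS* measured 4.44, 151 and 205 CPM and was 34.1-fold (30.8 to 37.9) higher in E19 HS, in 3.43% and 39.0% of cells, or 1.11% and 27.2% after thinning, and in 0.700% and 15.9% of erythroid cells. *JUN* measured 68.8, 215 and 240.2 CPM, or 3.13-fold (3.03 to 3.23), and *EGR1* measured 1.07, 9.97 and 10.1 CPM, or 9.30-fold (7.47 to 11.7). *ATF3*, a stress-induced member, measured 1.81, 7.52 and 16.2 CPM, with E19 HSTS highest. *FOS* was spread over many cells, since 1978 cells of E19 HS had 2 or more *FOS* UMIs, and they held 83.0% of its UMIs. Among erythroid cells, *FOS* was found in 0.700% and 15.9% (E16 HS, then E19 HS) and *JUN* in 11.2% and 46.3%. *FOSL2*, at 1.54, 0.202 and 0.454 CPM, was the member called toward E16 HS, and *MYC* was uncalled at 34.2, 18.7 and 20.5 CPM. Embryos were stored cold and then dissociated by collagenase before capture, and the part of these steps in the values was not tested.

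Other stress genes differed less. The heat shock list had 1 of 15 measured members called higher in E16 HS and 2 in E19 HS (median log2 ratio 0.07), with *HSPA1A* at 1.70, 4.44 and 16.8 CPM and the small heat shock gene *CRYAB* at 1.86, 10.0 and 9.99 CPM. The list for stress of the endoplasmic reticulum had 1 of 17 measured members called higher in E16 HS and 2 in E19 HS (median log2 ratio 0.01), with *DDIT3*, its pro-death factor, at 8.42, 26.8 and 36.6 CPM. *HSPCA*, an HSP90 symbol, had a large absolute difference toward E16 HS at 3782, 2853 and 3757 CPM, yet E19 HSTS lay close to E16 HS, and its ratio of 1.33 (1.32 to 1.33) was not called. The metallothioneins had 0 of 10 measured members called higher in E16 HS and 3 in E19 HS (median log2 ratio 0.10), and *MT3* measured 4.15, 28.6 and 22.5 CPM. *MT2* was among the 10 largest CPM differences toward E19 HS over all kept cells, at 46.6, 549 and 126 CPM, a ratio of 0.0849 (0.0825 to 0.0873). Its level in erythroid cells was 84, 1775 and 230.3 CPM, with a UMI in 27.4% and 96.4% of these cells in E16 HS and E19 HS, and in non-erythroid cells it measured 34.6, 85.0 and 42.0 CPM, or 2.45-fold (2.35 to 2.57) higher in E19 HS. The call of *MT2* was lost in 3 of the 12 alternative settings.

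Erythroid genes in the non-erythroid cells had 5 of 28 measured members called higher in E16 HS and 1 in E19 HS (median log2 ratio 0.05). *ALAS2*, the erythroid enzyme of heme synthesis, measured 7.84, 2.89 and 15.3 CPM there, but the cut that removed erythroid cells uses this gene and *AHSP*, so these values describe what the cut left behind. Progenitor genes of blood had 1 of 8 measured members called higher in E16 HS and 4 in E19 HS (median log2 ratio -0.81).

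Genes of cell division and metabolism had few called members. The list of the start of replication had 1 of 24 measured members called higher in E16 HS and 0 in E19 HS (median log2 ratio 0.30), and the list of mitosis had 0 of 19 measured members called higher in E16 HS and 0 in E19 HS (median log2 ratio 0.38), with *TOP2A* at 675, 663 and 878 CPM. Glycolysis genes had 2 of 31 measured members called higher in E16 HS and 0 in E19 HS (median log2 ratio 0.44), and *P4HA1*, a collagen hydroxylase induced by low oxygen, measured 129, 62.2 and 42.2 CPM, or 2.08-fold (2.01 to 2.16) higher in E16 HS. *GAPDH* measured 1578, 1879 and 6.68 CPM, with a ratio of 0.840 (0.833 to 0.846) between the Hu sheep libraries, whereas E19 HSTS stood far apart. Oxidative phosphorylation genes had 2 of 46 measured members called higher in E16 HS and 0 in E19 HS (median log2 ratio 0.11). Ribosomal protein genes had 1 of 54 measured members called higher in E16 HS and 0 in E19 HS (median log2 ratio -0.18), and they summed to 23.3% of UMIs in E16 HS and 26.4% in E19 HS. The ribosomal member called was *RPS6*, at 2174, 951 and 3229 CPM, where the 2 day 19 libraries lay on opposite sides of E16 HS. Heterochronic genes, which time development, had 0 of 9 measured members called higher in E16 HS and 0 in E19 HS (median log2 ratio 0.28), cell cycle inhibitors had 0 of 10 measured members called higher in E16 HS and 1 in E19 HS (median log2 ratio -0.38), and mitochondrially encoded genes had 0 of 11 measured members called higher in E16 HS and 0 in E19 HS (median log2 ratio -0.08). The cartilage list had 1 of 12 measured members called higher in E16 HS and 1 in E19 HS (median log2 ratio -0.01) and the platelet list 2 of 6 measured members called higher in E16 HS and 1 in E19 HS (median log2 ratio 0.70).

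The imprinted and growth factor list had 1 of 25 measured members called higher in E16 HS and 3 in E19 HS (median log2 ratio -0.16). *DLK1*, an imprinted inhibitor of differentiation, measured 74.3, 185 and 137 CPM and was 2.49-fold (2.42 to 2.57) higher in E19 HS, and *IGF1* measured 0.198, 1.30 and 1.31 CPM, or 6.59-fold (3.88 to 11.8), while *IGF2* was uncalled at 1051, 775 and 857 CPM. *IGFBP2*, an IGF carrier, measured 790.3, 1254 and 985 CPM. *S100A10*, the annexin partner, measured 1143, 235 and 227 CPM and was 4.86-fold (4.78 to 4.95) higher in E16 HS. It was found in 73.3% and 45.0% of non-erythroid cells and 78.3% and 43.5% of erythroid cells of E16 HS and E19 HS. In E16 HS the erythroid cells thus give no level of free RNA for it. *VIM*, the mesenchymal filament gene, measured 1591, 2412 and 1963 CPM, toward E19 HS but uncalled. Other genes among the largest CPM differences were uncalled housekeeping genes, such as *PPIA*, a cyclophilin, at 3803, 3039 and 3168 CPM, and *RAN*, a nuclear transport GTPase, at 2049, 1426 and 1441 CPM, toward E16 HS, and *FAU*, which encodes a ribosomal fusion protein, at 3502, 4442 and 3699 CPM, toward E19 HS. The linker histone gene *H1-2* measured 157, 499 and 486 CPM and was 3.18-fold (3.11 to 3.24) higher in E19 HS.

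Features without a symbol took 25.6% of UMIs in E16 HS and 27.5% in E19 HS, and no table used here pairs their identifiers with names. ENSOARG00020024296 had 6366 UMIs in E16 HS and 40 in E19 HS and was found in 40.0% and 0.429% of cells, a 119-fold (87.6 to 167) difference, with E19 HSTS at 0.636 CPM. ENSOARG00020018723 had 566 UMIs in E16 HS and 0 in E19 HS, which against a floor of 3 counts in that library is 141-fold higher. The lower limit of its interval was 115-fold. In the other direction ENSOARG00020008289 had 0 UMIs in E16 HS and 1869 in E19 HS, 831-fold higher against the same floor, with a lower limit of 675-fold. It measured 0, 29.0 and 12.6 CPM. ENSOARG00020021658 measured 0.0699, 11.1 and 0.890 CPM, and 97.8% of its UMIs in E19 HS came from 8 cells, all of which carried 2 or more myeloid markers.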

How the data were processed

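Single-cell RNA was measured in whole embryos, 1 library per condition, with the droplet 3′ kit of 10x Genomics, version 3.1. Per the submitters' processing notes, reads were aligned and counted with Cell Ranger 6.1.2, and Seurat 4.1.1 was used downstream; per the study's methods the reads were processed with the sheep reference genome Ovis_aries_genome_v1.0. The values are raw UMI counts per gene and cell as deposited by the authors, checked to be whole numbers, and the total deposited per library was 128271878 UMIs for E16 HS, 94754580 for E19 HS and 107817481 for E19 HSTS. Of 26478 features 16670 have a symbol; a table of RefSeq genes held 0 of the Ensembl identifiers, so no names, coordinates or sequences were added.

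Kept cells were summed per library and scaled to CPM. The ratio of 2 libraries has an exact conditional binomial interval at the 95% level, and a share of cells has an exact binomial (Clopper-Pearson) interval; both cover counting error only. Against a library with 0 UMIs of a gene the floor was 3 counts, and for a gene without any UMI the share of non-erythroid cells with a UMI may be up to 0.0389% in E16 HS and 0.0396% in E19 HS. Shares of cells with 3 or more markers of a list, and shares given as thinned, came from cells thinned to 3000 UMIs (seed 1). This left out 1300 shallower non-erythroid cells of E16 HS and 1345 of E19 HS. All other shares, also those of cells with 2 markers among cells carrying a gene, used unthinned cells. They are not matched for depth between the libraries. Erythroid cells were taken to give the level of free RNA, except for genes found in more of them than of the other cells, such as *MT2*, *ISG15* and *APOA1* in both Hu sheep libraries. Scrublet in scanpy 1.11.5 marked 0 cells of E19 HS, so doublets stayed in and an alternative left out the 8% of cells with the highest scores. Counts were handled in Python 3.11.15 (scipy 1.17.1, numpy 2.4.6, pandas 2.3.3), figures were drawn with matplotlib 3.10.9, and edgeR 4.0.16 in R 4.3.3 gave the TMM factors of an alternative.

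Genes were named by rule: without erythroid cells, with a symbol and at least 500 UMIs over both libraries, the 15 largest and the 15 smallest ratios; the 10 largest CPM differences in each direction; and members of 46 lists of markers and pathways, of which the defining genes of a tissue or those with the largest and smallest ratio at 50 or more UMIs were taken. The comparison, the lists and the rule were chosen with earlier results of these data known. A list of interferon-stimulated genes was added after values had been seen, and *GAPDH*, *RPS6*, *TAC3*, *DHRS3*, *FGFBP3* and members with under 50 UMIs were picked out with their values already known. Some genes that the rule names are not reported here. A list is described by its counts and its median beside those of all genes, with no set test. The intervals were tested on simulated counts: in the comparison without erythroid cells, on 15121 genes, 98.0% of intervals covered the true ratio among 200 changed genes, 95.6% covered 1 among the unchanged, and 95.0% of 4-fold and 89.0% of 2.5-fold changes were called. The simulated counts were independent draws per gene and library, as the interval assumes. They check the calculation only and cannot show how the intervals hold where UMIs lie in few cells. Alternatives were a stricter cell filter, all deposited cells, TMM scaling, the mean over cells, thinning, other minimum counts, other call rules, another erythroid cut, other totals, and the doublet scores.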

Additional observations from a re-analysis of the deposited data

How the results depend on the processing

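Over all kept cells the count of genes called higher in E16 HS was 1167, and it was 746 with TMM scaling, 751 with cells thinned to 3000 UMIs, 733 with at least 100 UMIs, and 582 when the whole interval had to lie past 2-fold. The count higher in E19 HS was 1218, and 581 and 637 under the last 2 settings. Without erythroid cells these 2 settings gave 588 and 466 genes in place of 927 higher in E16 HS, and 647 and 715 in place of 1379 higher in E19 HS. Each of them tests fewer genes or asks for more. TMM scaling moved the median log2 ratio of all genes from 0.20 to -0.02 over all cells and from 0.08 to -0.02 without erythroid cells, and with it 31.6% rather than 48.9% of the calls over all cells, and 33.2% rather than 40.2% of those without erythroid cells, were higher in E16 HS. Without the interval condition, with no minimum beyond 1 UMI, with the stricter filter and with the other settings the counts stayed within 1.5 times. The erythroid share of E16 HS was 16.4%, and 17.8% with the stricter filter, 15.2% over all deposited cells, 22.3% with a cut at 2 *AHSP* UMIs alone, and 5.77% after thinning, and that of E19 HS was 12.3%, and 14%, 11.6%, 13.5% and 1.91% under the same settings. Of 63 genes named by rank, the 46 called kept their sign in every alternative and 45 kept their call, *MT2* being the exception. A single gene had opposite calls between settings, under the other erythroid cut. The cause of these shifts was not tested beyond what each setting removes. No paired analysis was possible because each condition has 1 library, and for the same reason no replicate could be left out.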
